A study of Homo sapiens with 10 samples.

Results

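The long arm of human chromosome 17 distal to ERBB2 was examined from hg19 position 41 Mb to its end, as mapped by 2 assays in SKBR3 and BT474 cells. Both are established breast cancer cell lines in which ERBB2, the gene of the receptor tyrosine kinase HER2, is amplified. All H3K4me1 islands and HER2 peaks lying in the segment were taken, whatever their values. These were 1699 of 96291 and 1587 of 89477 islands in the BT474 replicates, 1483 of 72888 and 1472 of 70251 islands in the SKBR3 replicates, and 34 of 2596, 45 of 2520, 87 of 8559 and 343 of 29326 HER2 peaks in SKBR3 with vehicle, SKBR3 with EGF, BT474 with vehicle and BT474 with EGF. ERBB2 itself lies before the segment.

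HER2 was mapped by ChIP-exo, in which DNA held by an antibody is trimmed by an exonuclease before sequencing, in cells given water as vehicle or, for 3 h, 100 ng/ml of the growth factor EGF. Each of these 4 conditions had 1 list of peaks and no replicate. H3K4me1, monomethylated lysine 4 of histone H3, was mapped by ChIP-seq in 2 replicates of each line, which the labels call asynchronous and the study's text calls EGF treated. Both lines carry their own copy number changes, DNA copies were not measured here, and so more copies and more mark per copy cannot be told apart in any H3K4me1 value that follows.

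H3K4me1 marks enhancers and the flanks of active promoters, often over broad regions. The distal long arm of chromosome 17 carries, in order from ERBB2, the HOXB cluster of homeodomain transcription factors that pattern the body axis, stretches at 17q21-q23 that are often gained in breast cancer, the SOX9 region at 17q24 and the gene-rich 17q25 with Polycomb genes such as CBX2 and CBX8. The segment held 40.05 Mb of known sequence, 1.41% of the genome, and 516 protein-coding genes.

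The HER2 sites on which the lists met are shown first. Of 383 merged sites on the segment, 285 were in 1 list, 73 in 2, 24 in 3 and 1 in all 4. The site in all 4 lists lay in an intron of RBFOX3, which encodes a neuronal splicing regulator (NeuN). Of the sites in 3 lists, those in RGS9, SLC16A5 and SRP68 lay within an H3K4me1 island in each of the 4 libraries. The SKBR3 EGF peak of highest score on the segment is added for comparison. Each sequence is 101 bases of the plus strand of GRCh37 around the midpoint of the site, and capitals would mark the core CGTNTGC on either strand.
RBFOX3, chr17:77328884-77328984: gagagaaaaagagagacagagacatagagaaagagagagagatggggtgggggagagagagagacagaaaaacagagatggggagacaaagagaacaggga
RGS9, chr17:63167704-63167804: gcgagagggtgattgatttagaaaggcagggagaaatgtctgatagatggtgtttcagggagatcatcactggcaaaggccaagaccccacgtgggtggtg
SLC16A5, chr17:73088237-73088337: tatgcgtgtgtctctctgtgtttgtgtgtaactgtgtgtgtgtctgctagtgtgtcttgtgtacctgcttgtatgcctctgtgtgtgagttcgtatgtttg
SRP68, chr17:74046085-74046185: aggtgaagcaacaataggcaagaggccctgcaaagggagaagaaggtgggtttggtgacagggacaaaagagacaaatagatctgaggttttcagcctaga
RBFOX3, chr17:77464674-77464774: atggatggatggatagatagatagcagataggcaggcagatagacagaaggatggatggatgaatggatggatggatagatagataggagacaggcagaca
None of these 5 windows held the core, and of the whole sites only that in SRP68 held 1 copy. The window in all 4 lists was 90.1% A or G, the other RBFOX3 window 76.2% and built of short repeats, and the SLC16A5 window, at 38.6% A or G, was rich in repeated TG.

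Mature microRNAs with genes in the HOXB cluster and within VMP1 are shown with their seed, bases 2 to 8, in capitals (RefSeq, GRCh38.p14). Their genes, MIR196A1 and MIR21, lay in an island in both BT474 replicates and in neither SKBR3 replicate, as did 4 others, and these 2 were chosen after their values were seen.
hsa-miR-21-5p: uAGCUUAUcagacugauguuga
hsa-miR-196a-5p: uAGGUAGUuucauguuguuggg

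The H3K4me1 libraries held between 15097245 and 18714089 reads in islands, each island at least 20 reads. As a check of the lines, ERBB2 was covered by islands over 100% of its length in both BT474 replicates and 97.6% and 97.2% in SKBR3. CDH1, the E-cadherin gene, was covered over 57.0% and 58.6% in BT474 and 0% in SKBR3, and ESR1, the oestrogen receptor gene, over 26.3% and 27.3% in BT474 and 19.7% and 18.8% in SKBR3.

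BT474 carried more H3K4me1 on the segment than SKBR3 did. The segment held 3.98% and 3.96% of all island reads in the BT474 replicates against 2.10% and 2.23% in SKBR3. Islands covered 21.32% and 20.31% of it in BT474, where they covered 10.9% and 10.4% of the genome, and 16.6% and 17.7% in SKBR3, where they covered 11.2% and 11.3%. The longest island measured 171.8 and 189.0 kb in BT474 and 52.2 and 53.4 kb in SKBR3. Transcription starts of 138 and 123 of the 516 coding genes lay in an island in BT474 (26.7% and 23.8%, against 18.7% and 17.2% over the genome), and 67 and 76 in SKBR3 (13.0% and 14.7%, against 13.0% and 15.1%).

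The lines also placed their islands differently. The shared length of islands over their joint length (Jaccard index) was 0.749 between the BT474 replicates and 0.720 between the SKBR3 replicates, but 0.301 to 0.307 between lines, against 0.366 to 0.374 between lines over the genome. By covered length, not by number, BT474 islands lay mainly in the proximal part, and by covered length SKBR3 islands lay mainly in the distal part of the segment. From 46 to 60 Mb, islands covered 33.7% and 32.6% in BT474 and 6.83% and 7.04% in SKBR3, whereas from 60 Mb to the end they covered 15.5% and 14.5% in BT474 and 25.4% and 27.3% in SKBR3. These stretches were set after the bins had been seen.

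**Figure D1:**
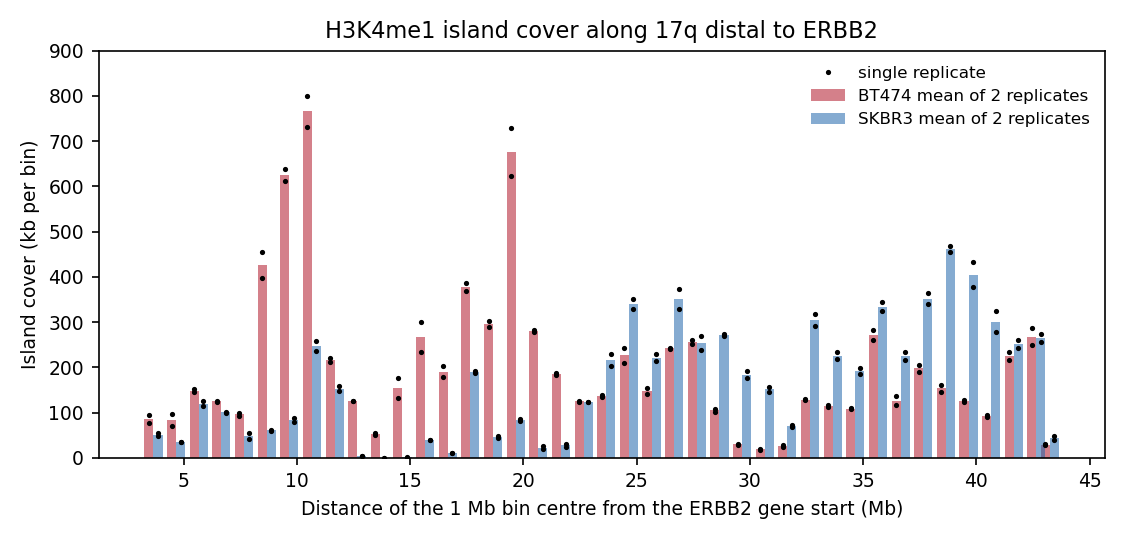
Island cover in kb for each 1 Mb bin of the segment, against the distance of the bin centre from the ERBB2 gene start in Mb; bars are means of 2 replicates and dots single replicates of BT474 (red) and SKBR3 (blue). BT474 reached 800.8 kb in its fullest bin and SKBR3 467.6 kb in its own, further from ERBB2, and the last bin is partial.

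Bins are named here by the Mb at which they start. From Mb 41 to Mb 45, cover was 70.8 to 151.4 kb per bin in BT474 and 34.0 to 124.8 kb in SKBR3. Cover in BT474 was then 455.8 and 398.2 kb at Mb 46, 611.6 and 638.8 kb at Mb 47 and 800.8 and 730.8 kb at Mb 48, where SKBR3 had 59.6 and 62.0 kb, 78.6 and 87.4 kb, and 237.2 and 259.2 kb. At Mb 49 the lines were closer, with 220.0 and 212.8 kb in BT474 and 147.0 and 159.4 kb in SKBR3. Between Mb 50 and Mb 54, which hold CA10, TOM1L1, HLF and ANKFN1, BT474 kept 49.8 to 301.4 kb per bin and SKBR3 at most 40.0 kb. SKBR3 had no island at all at Mb 51, and in 1 of its replicates none at Mb 52.

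Cover reached a further maximum in BT474 at Mb 57, with 730.0 and 623.2 kb against 86.0 and 81.8 kb in SKBR3. From Mb 60 to Mb 66 the order turned or levelled, with 100.8 to 260.8 kb per bin in BT474 and 123.4 to 372.8 kb in SKBR3. The bins Mb 67 to Mb 69, before SOX9, held 16.6 to 31.0 kb in BT474 and 69.0 to 192.4 kb in SKBR3. SKBR3 was widest covered at Mb 76, with 454.2 and 467.6 kb against 161.8 and 144.8 kb. Over the 39 bins with at least 50 kb in both replicates of a line, 11 had at least 2 times more island length in BT474 than in SKBR3 in every pair of libraries (Mb 46 to 48, 50, 52 to 54 and 56 to 59), against 17.1% of such bins over the genome. In 8 bins (Mb 66 to 70 and 76 to 78) SKBR3 had at least 2 times more than BT474, against 11.9% over the genome.

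Cover says how much of a bin is marked, and the number of reads per kb of island how strongly. Each library's reads per kb were divided by its median over bins, 55.3 and 46.8 in BT474 and 43.2 and 41.9 in SKBR3, so that 1 is a typical bin of that library. A bin was called dense where both replicates of a line reached 2 with at least 50 kb of islands. In BT474, Mb 46, 48, 52 and 57 were dense, 4 of the 36 bins that could be called, against a background of 0.677% of bins over the genome. In SKBR3, 0 of 29 bins were dense, against 1.06% over the genome. The remaining dense bins of BT474 were Mb 36 to 38 of chromosome 17, around ERBB2, and 6 bins of chromosome 20, and SKBR3 too had Mb 37 and 38.

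The 4 dense bins of BT474 stood clear of SKBR3. Mb 46 measured 2.11 and 2.12 in BT474 and 0.791 and 0.794 in SKBR3. Mb 48 measured 2.18 and 2.16 against 1.00 and 0.990, and Mb 57 measured 2.504 and 2.692 against 0.761 and 0.740. Mb 52, which starts before TOM1L1 (a membrane trafficking adaptor), measured 2.59 and 2.46 in BT474 and was nearly without islands in SKBR3. Just under the threshold lay Mb 47 at 2.06 and 1.94, Mb 53 at 2.27 and 1.90, and Mb 54 at 1.95 and 2.08, and the 4 bins would be 10 at a threshold of 1.5 and 1 at 2.5. In SKBR3 the highest bin was Mb 77, with 1.76 and 1.79 against 0.929 and 0.919 in BT474.

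**Figure D2:**
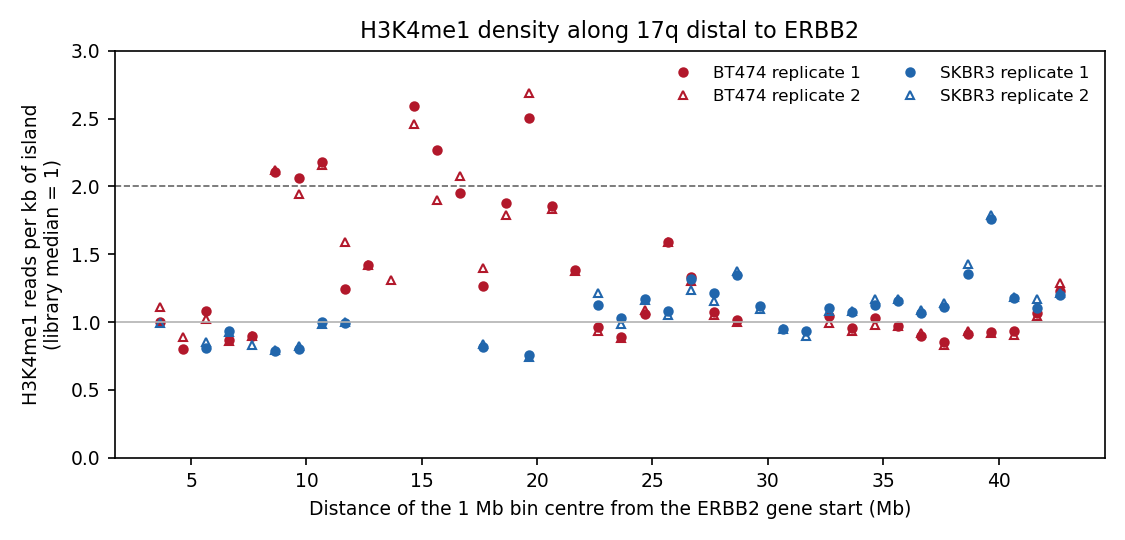
H3K4me1 reads per kb of island divided by the library median, for each 1 Mb bin with at least 50 kb of islands, against distance from the ERBB2 gene start in Mb; each symbol is 1 replicate, the dashed line is the threshold of 2 and the solid line the median. The red symbols of BT474 exceed 2 in both replicates in 4 bins, and the blue symbols of SKBR3 peak at 1.76 and 1.79.

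The density of the lines was then compared by edgeR's quasi-likelihood test over 1530 bins of the genome, of which 26 lay on the segment. With Benjamini-Hochberg adjustment, 8 of the 26 bins had a higher density in BT474, against 34.1% of bins over the genome, and 16 in SKBR3, against 36.3%. Among the tested bins the count for BT474 was thus near the background and only the size of its differences stood apart. Bins with under 50 kb of islands in any library were not tested. Low SKBR3 cover thus left out, among others, Mb 50, 52 to 54, 56, 58 and 59, with the dense bin Mb 52 among them. With a minimum of 20 kb, 12 of 35 bins were higher in BT474 and 17 in SKBR3, against 708 and 690 of 2047 over the genome. The density in BT474 was 3.46-fold that in SKBR3 at Mb 57 (log2 ratio 1.79, SE 0.04), and the log2 ratio was 1.42 (SE 0.03) at Mb 46, 1.30 (SE 0.04) at Mb 47 and 1.13 (SE 0.03) at Mb 48. It was 0.69 at Mb 55, 0.58 at Mb 63, 0.51 at Mb 49 and 0.34 at Mb 43. The replicates were not said to come from separate cultures, so these p-values measure only the spread between these samples.

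A test for differences beyond 1.5-fold left 5 of the 26 bins higher in BT474 (Mb 46, 47, 48, 55 and 57), against 0.85% of bins over the genome, with edgeR adjusted p from 5.44e-192 at Mb 57 to 0.00193 at Mb 55. In SKBR3 it left 1 of 26, Mb 77, against 1.83% over the genome (log2 ratio -0.94, SE 0.03; edgeR adjusted p = 8.46e-31). SKBR3 was next highest at Mb 76 (log2 ratio -0.59, SE 0.03) and Mb 66 (-0.43, SE 0.03). The remaining bins called higher in SKBR3 (Mb 44, 60 to 62, 65, 70 to 75, 78 and 79) had log2 ratios from -0.10 to -0.41. Of these, Mb 44, 70 and 79 lost the call in at least 1 of the 8 fits of 1 Mb bins, in which a library or a choice of the model was changed.

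At 100 kb, BT474 had 11 dense segments of 3.1 Mb in all with 63 protein-coding genes, and SKBR3 had 1. The first BT474 segment, from 46.6 to 46.9 Mb, was the HOXB cluster with its neighbours PRAC1, PRAC2 and TTLL6. Islands covered 82.0% and 77.5% of it in BT474 at a density of 2.32 and 2.34, and 1.27% and 1.20% in SKBR3. Each of the 10 HOXB genes listed, from HOXB1 to HOXB9 and HOXB13, was covered over 100% of its length in both BT474 replicates and over 0% in both SKBR3 replicates. A single island of 140.8 kb in 1 BT474 replicate and 189.0 kb in the other held HOXB1 to HOXB9 and the gene MIR196A1, whose microRNA is printed above. Since SKBR3 had almost no island there, 9 of the 10 HOXB genes could not be tested, and HOXB1, with a small SKBR3 island within 5 kb, had a density of 2.36 and 2.40 in BT474 and 0.810 and 0.686 in SKBR3.

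Further dense segments of BT474 lay on either side of Mb 48. The segment from 47.1 to 47.2 Mb held IGF2BP1, an RNA-binding protein gene, and that from 47.4 to 47.5 Mb held ZNF652 and PHB1 (prohibitin). The longest, from 47.9 to 48.8 Mb, held 25 coding genes, among them the homeobox genes DLX3 and DLX4, the integrin gene ITGA3, the collagen gene COL1A1 and the drug transporter gene ABCC3. It was covered over 82.5% and 75.1% in BT474, at a density of 2.24 and 2.26, and over 19.8% and 23.3% in SKBR3, at 0.889 and 0.884. The segments from 52.6 to 53.0 Mb (TOM1L1), from 53.5 to 53.8 Mb (SMIM36 and TMEM100) and from 54.1 to 54.3 Mb (ANKFN1) had islands over 24.7% to 44.8% of their length in BT474, so here the density was high in a smaller marked part. In SKBR3 they were covered over 0% to 4.47%.

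The densest segments lay from 57.2 to 58.5 Mb. The segment from 57.7 to 58.0 Mb held CLTC (clathrin heavy chain), PTRH2, VMP1 (an autophagy protein), TUBD1 (delta tubulin) and RPS6KB1, the S6 kinase downstream of mTOR. It was covered over 98.5% and 95.7% in BT474 at a density of 2.96 and 3.01, and over 17.6% and 14.9% in SKBR3 at 0.721 and 0.696. A single island of 171.8 kb and 172.0 kb joined CLTC, PTRH2 and VMP1 in the BT474 replicates, the fifth and the sixth longest of their libraries. Next to it an island of 53.2 and 57.2 kb held MIR21 at a density of 3.81 and 4.55, the gene of the microRNA printed above, and SKBR3 had none there. The neighbouring segments held SKA2, PRR11, SMG8, GDPD1 and YPEL2 (57.2 to 57.5 Mb) and USP32 and CHCT1 (58.4 to 58.5 Mb), and a smaller segment from 56.4 to 56.5 Mb held RNF43, an inhibitor of Wnt signalling, with 4 other genes.

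The longest SKBR3 island on this arm, 52.2 and 53.4 kb at a density of 2.55 and 2.76, lay in TBC1D16, which encodes a GTPase-activating protein of RAB proteins.

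Density was also compared by gene, over the islands within 5 kb of each gene that had at least 20 reads in every library. Of 12904 genes so tested, 339 of the 516 coding genes of the segment were included. By edgeR's quasi-likelihood test 92 of these were higher in BT474, against 16.2% over the genome, and 88 were higher in SKBR3, against 17.2%. Their median log2 ratio was -0.02. Of 39 genes starting in the 4 dense bins, 34 were higher in BT474 and 0 in SKBR3, with a median log2 ratio of 1.29, but the dense call itself used these reads. Of the 300 others, 58 were higher in BT474 and 88 in SKBR3 (median -0.10). Neighbouring genes often share an island and are not independent.

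The 5 highest ratios all belonged to genes between 57.4 and 58.5 Mb. VMP1 measured 3.11 and 3.13 in BT474 and 0.740 and 0.711 in SKBR3, and TUBD1 measured 3.50 and 3.78 against 0.723 and 0.678. The fold difference was 4.30 for VMP1 (log2 ratio 2.10, SE 0.05; edgeR adjusted p = 4.80e-12) and 5.21 for TUBD1 (log2 ratio 2.38, SE 0.07; edgeR adjusted p = 1.31e-11). YPEL2 measured 3.93 and 3.84 against 0.923 and 0.867, a 4.34-fold difference. CLTC and USP32, a deubiquitinase, were 4.07-fold and 3.81-fold higher in BT474. For each of these 5 genes both BT474 values lay above both SKBR3 values, but they were chosen for their ratios, so this adds no support.

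Of the 18 genes listed at 17q23, 8 could be tested and 7 of them were higher in BT474, with a median log2 ratio of 1.57. Beside those named above, APPBP2 (1.20), PPM1D (1.07), a phosphatase of the p53 response, and BCAS3 (0.88) passed, whereas TLK2, the most distal, had -0.41 (SE 0.18; edgeR adjusted p = 0.0918). PTRH2 and RNFT1 were covered over 100% in BT474 and 0% in SKBR3 and so could not be tested, and RPS6KB1 was covered over 72.2% and 72.5% against 0%. Within the same stretch TBX4 had no island in any library, and TBX2 was covered over 52.2% and 48.1% in BT474 and 0% in SKBR3. Of the 20 genes listed at 17q21.33-q22, 16 could be tested and all 16 were higher in BT474 (median log2 ratio 1.22), from 0.29 for AKAP1 to 1.80 for ZNF652, with DLX3 at 1.62 and SKA2, of the mitotic spindle, at 1.57.

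Nearer to ERBB2 and beyond 17q23 the differences were smaller and mixed. Of 7 genes tested in the list at 17q21, MAP3K14, the kinase of noncanonical NF-kappaB signalling (0.48), and GFAP (0.69) were higher in BT474 and KANSL1 in SKBR3 (-0.22), and 8 others could not be tested. The value of GFAP came from an island beside it, shared with CCDC103, since islands covered 0% of GFAP itself in both BT474 replicates and 0.537% and 3.44% in SKBR3. Of 12 genes at 17q24, DDX5 (0.30) and PITPNC1 (0.18) were higher in BT474 and BPTF, a chromatin remodelling factor (-0.70), KPNA2, an importin (-0.68), and MAP3K3 (-0.53) in SKBR3. SOX9, a transcription factor of progenitor cells, had a log2 ratio of -0.10 (SE 0.12; edgeR adjusted p = 0.556).

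At 17q25 the order turned, and 16 of 27 genes tested were higher in SKBR3 and 2 in BT474 (median log2 ratio -0.41). CBX8, a Polycomb protein that binds methylated histone H3, measured 1.90 and 2.14 in SKBR3 and 0.818 and 0.691 in BT474. The difference was 2.68-fold (log2 ratio -1.42, SE 0.09; edgeR adjusted p = 6.58e-08). Its neighbour and relative CBX2 was 2.27-fold higher in SKBR3. C1QTNF1 and LGALS3BP, a secreted glycoprotein gene, were 2.57-fold and 2.45-fold higher, and TIMP2, an inhibitor of metalloproteinases, had a log2 ratio of -0.83. FASN (fatty acid synthase, 0.57) and RAC3 (0.61), towards the chromosome end, were the 2 genes higher in BT474.

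By function rather than place, where 27.1% of the tested genes of the whole segment were higher in BT474 and 26.0% in SKBR3, of 11 genes of EGF and kinase signalling tested, 3 were higher in BT474 (PPM1D, ABI3 and MAP3K14) and 5 in SKBR3: MAP3K3, SOCS3, an inhibitor of cytokine signalling (-0.57), RHBDF2 (-0.49), the adaptor GRB2 (-0.39) and the mTOR partner RPTOR (-0.31). Of 10 adhesion and epithelial genes, ITGA3 (1.28) and COL1A1 (0.97) were higher in BT474 and 6 in SKBR3, among them TIMP2, EVPL (-0.67) and CDC42EP4 (-0.54). In both lists the genes higher in BT474 lay proximal to those higher in SKBR3. The lists overlap with those by place.

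**Figure D3:**
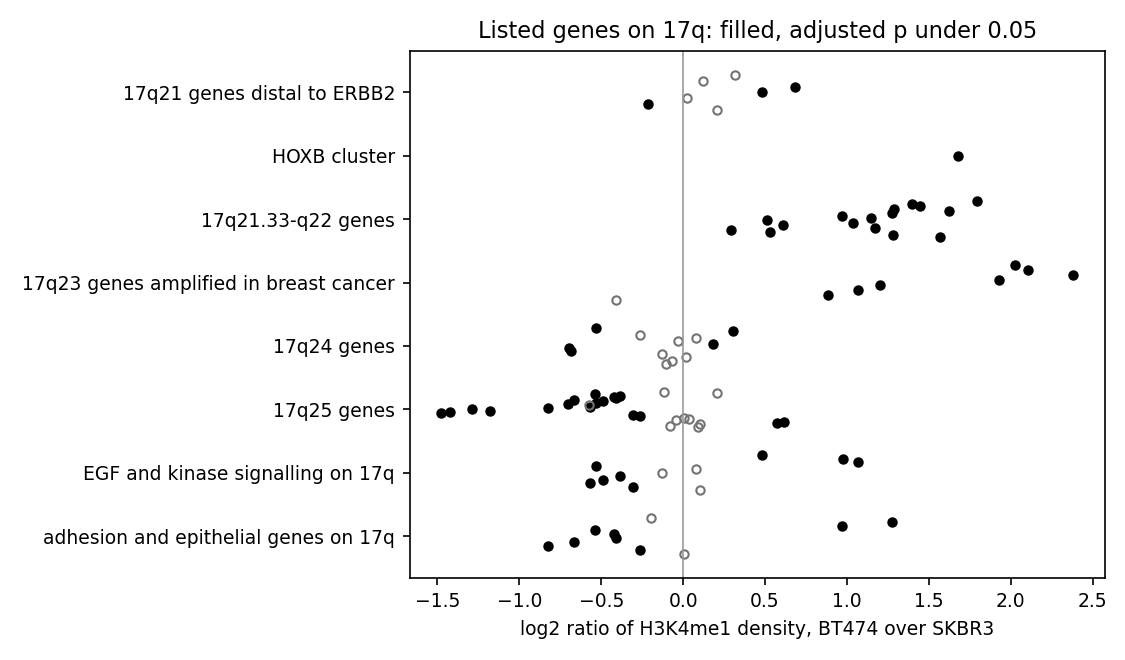
log2 ratio of H3K4me1 density, BT474 over SKBR3, for the tested genes of each list, drawn within a list in order along the chromosome; filled points passed at an edgeR adjusted p under 0.05 and open points did not. Points of 17q21.33-q22 lie from 0.29 to 1.80 and 16 of the 27 points of 17q25 are filled and lie below 0.

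HER2 peaks were fewer per Mb on the segment than elsewhere in both BT474 lists, and in SKBR3 no difference was detectable beyond counting error. The segment held 0.849 and 1.12 HER2 peaks per Mb in SKBR3 with vehicle and EGF, against 0.916 and 0.885 per Mb elsewhere, and 2.17 and 8.57 in BT474, against 3.03 and 10.4. As a share of the list this was 1.31% (95% Wilson interval 0.939 to 1.82) and 1.79% (1.34 to 2.38) in SKBR3 and 1.02% (0.825 to 1.25) and 1.17% (1.05 to 1.30) in BT474, where the segment is 1.41% of the genome. The lists give no read counts, so their depth is unknown, and the intervals cover counting error only. With 1 list per condition no test of EGF was possible.

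Within the segment the peaks lay mostly beyond 60 Mb. In SKBR3, 33 of 34 vehicle peaks and 41 of 45 EGF peaks lay there, at 1.57 and 1.95 per Mb, whereas from 46 to 60 Mb there were 1 and 3 peaks. In BT474, 66 of 87 vehicle peaks and 236 of 343 EGF peaks lay there, at 3.14 and 11.2 per Mb against 1.07 and 5.93 per Mb from 46 to 60 Mb. The Mb with most peaks was Mb 77 in both SKBR3 lists (6 peaks each), Mb 65, 67 and 68 in BT474 with vehicle (7 each) and Mb 80 in BT474 with EGF (29). Mb 50, around the carbonic anhydrase-related gene CA10, had 27 BT474 EGF peaks, 5 BT474 vehicle peaks and 1 SKBR3 EGF peak.

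**Figure D4:**
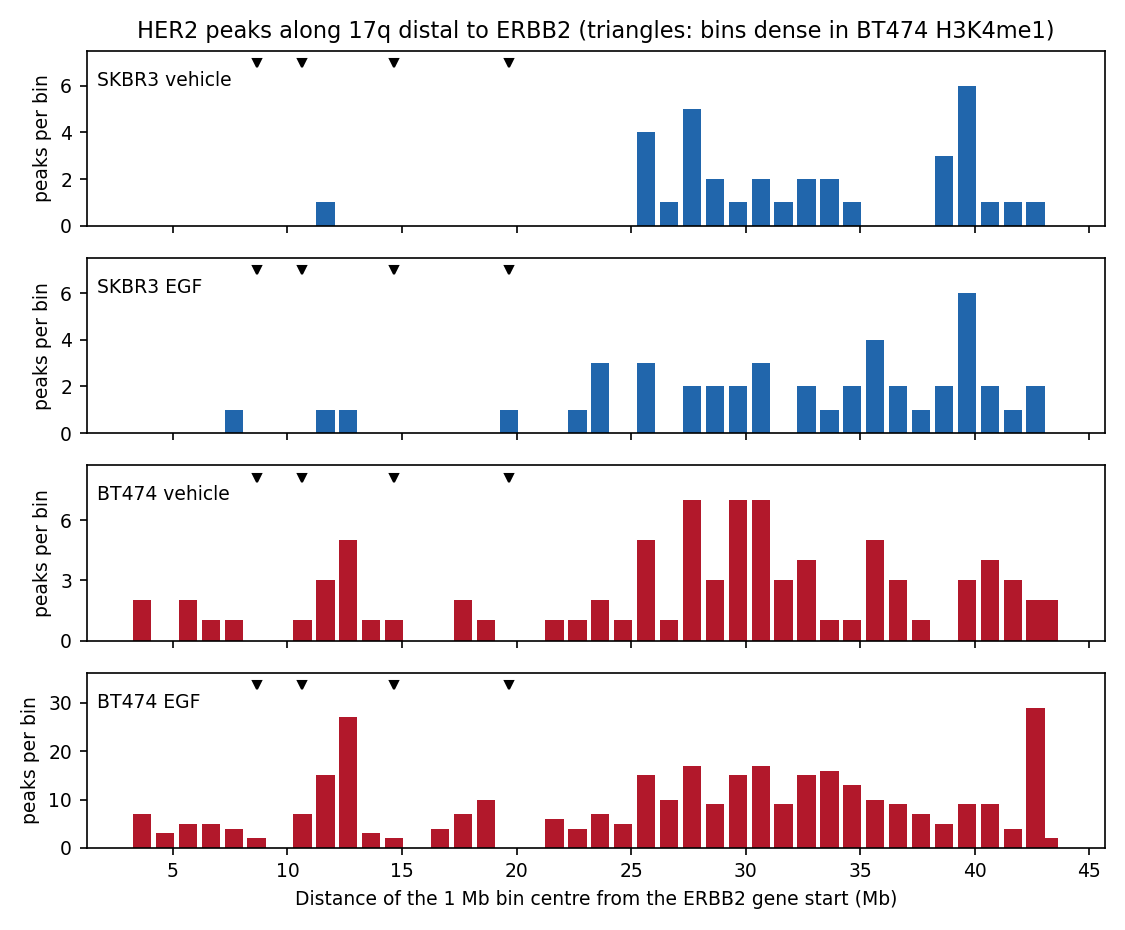
HER2 peaks per 1 Mb bin in each of the 4 lists, against distance from the ERBB2 gene start in Mb, each panel with its own scale; triangles mark the bins dense in BT474 H3K4me1. The 4 marked bins hold 0, 1, 2 and 11 peaks from the top panel to the bottom, and the highest bar is 29 peaks.

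The 4 bins dense in BT474 H3K4me1 were poor in HER2 peaks. They held 2 BT474 vehicle peaks and 11 BT474 EGF peaks, 0.5 and 2.75 per Mb, where the rest of the segment held 2.36 and 9.21 per Mb. The ratio was 0.212 (exact 95% interval of the counts 0.0253 to 0.790) with vehicle and 0.299 (0.148 to 0.541) with EGF. In SKBR3, where these bins were not dense, they held 0 and 1 peaks, against 34 and 44 in the rest, with intervals of the ratio that reached 1.03 and 1.20. Of the bins not called dense, Mb 47, 53 and 58 also held 0 BT474 peaks, whereas Mb 50 held 5 and 27. The stretch from 41 to 46 Mb, with no dense bin, held 1.2 and 4.8 BT474 peaks per Mb. The rest of the segment includes the part beyond 60 Mb, at 3.14 and 11.2 per Mb. Dense marking and position along the arm therefore cannot be told apart in these ratios. The 11 dense segments at 100 kb held 0 and 0 SKBR3 peaks and 1 and 9 BT474 peaks, of which 1 and 7 lay in the segment of ITGA3 and ABCC3. The study's methods name a step that removes regions with a high input signal, and its part in these low counts was not tested.

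HER2 peaks lay within H3K4me1 islands of their own line in 8 of 34 (23.5%, 95% Wilson interval 12.4 to 40.0) and 16 of 45 (35.6%, 23.2 to 50.2) cases in SKBR3 with vehicle and EGF, and in 18 of 87 (20.7%, 13.5 to 30.4) and 78 of 343 (22.7%, 18.6 to 27.5) in BT474. Elsewhere in the genome the shares were 18.8%, 17.1%, 15.3% and 13.9%. The intervals of the EGF lists lay above the share elsewhere in both lines, on a segment that islands cover more widely than the genome. Only 54 of the 78 BT474 EGF peaks lay in islands of both replicates, which is 15.7% of the 343. No share elsewhere is given for islands of both replicates, so whether the difference of either EGF list remains there is not known.

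The highest BT474 peak of the segment, with and without EGF, was the RGS9 site printed above, in an intron 70.8 kb from the start of this gene of a G-protein signalling regulator, with a score of 424.5 with vehicle and 985.0 with EGF. It was also in the SKBR3 EGF list at 181.5, and not in the SKBR3 vehicle list. The next BT474 sites were 475 kb from the start of SOX9 (309.0 with vehicle and 420.0 with EGF), in an intron of CA10 (308.5 with vehicle) and in an intron of B3GNTL1 (456.0 with EGF), and none of these lay in an island. In SKBR3 with EGF the highest were the RBFOX3 sites (662.0 and 566.5) and one 37.5 kb from the start of MAP2K6, a p38 kinase kinase (510.0). In SKBR3 with vehicle they lay 10.1 kb from the start of CARD14 (78.0), within an island of 1 SKBR3 replicate, 7.54 kb from that of TIMP2 (67.5), within islands of both SKBR3 replicates, and in RBFOX3 (67.5), in no island. None of these 3 was in another list. The scale of the score is not stated, so no difference in score between lists is read here.

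The lists overlapped unequally. Of 34 SKBR3 vehicle peaks 5 (14.7%, 95% Wilson interval 6.45 to 30.1) overlapped an SKBR3 EGF peak, near the 13.0% elsewhere in the genome. The share was 5.26% when peaks scored under their list's median were left out of both lists. No share elsewhere is given for such shortened lists. Of 87 BT474 vehicle peaks 78 (89.7%, 81.5 to 94.5) overlapped a peak of the far longer BT474 EGF list, near the 91.2% elsewhere. Of 45 SKBR3 EGF peaks 34 (75.6%, 61.3 to 85.8) overlapped a BT474 EGF peak, with the 84.9% elsewhere inside the interval. The site in all 4 lists had scores of 26.5, 566.5, 35.0 and 137.5 in SKBR3 with vehicle and EGF and BT474 with vehicle and EGF.

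The core CGTNTGC, sought on both strands within 50 bp of the peak midpoint, was at 1 of 34 and 3 of 45 SKBR3 peaks and at 19 of 87 (21.8%, 95% Wilson interval 14.5 to 31.6) and 34 of 343 (9.91%, 7.18 to 13.5) BT474 peaks. Elsewhere in the genome it was at 3.47%, 12.1%, 11.9% and 7.45% of peaks. The interval of the BT474 vehicle list lay above its share elsewhere. In the narrower window of 25 bp, 4.60% of these peaks held the core. The share elsewhere at that width is not given, so whether the difference remains there is not known. The core within 50 bp was spelled CGTATGC at 12 of the 19 and 16 of the 34 peaks. The share so spelled elsewhere in the genome is not given, so no preference is read from these counts. A match is a description of the letters and not of a bound motif.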

How the data were processed

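HER2 ChIP-exo and H3K4me1 ChIP-seq lists of SKBR3 and BT474 were put into groups from their labels (line, antibody, treatment). Inputs (2 samples) are not analysed here. According to the methods of the study, reads were mapped to hg19 with bowtie2, HER2 peaks called with MACS2 and islands with SICER, with blacklisted and high-input regions removed. The submitters' processing notes instead list BWA 0.5.9, MACS 1.4.1 and SICER 1.1, and which of these made the lists is unsettled. The island lists hold read counts as deposited by the authors, without scaling for depth. The HER2 lists hold a score as deposited by the authors, in steps of 0.5 on an unstated scale.

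The members and gene lists were chosen with earlier results of these data known. Islands were assigned to 1 Mb bins by midpoint. Bins with at least 50 kb of islands, and genes (GENCODE release 44 mapped to GRCh37) with at least 20 island reads in each library, were compared by edgeR 4.0.16 quasi-likelihood tests in R 4.3.3, with the log of island kb times the library median as offset and Benjamini-Hochberg adjustment over all bins or genes. As reads were counted in islands called separately per library, a density depends also on where islands were called. Peaks were shared at 1 bp of overlap. Named genes were those of 8 lists with the largest ratios that passed, the 5 genes highest each way, the genes at the 3 top HER2 peaks per list, those of dense segments, and ERBB2, ESR1 and CDH1. One item that this rule names is not reported here. Alternatives included DESeq2 1.42.0, other bin sizes, filters and thresholds, and leaving out each replicate. The fits were tested on simulated data with known changes.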

Additional observations from a re-analysis of the deposited data

Results flagged for a closer look

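The median HER2 score on the segment was 35.25 with vehicle and 144.5 with EGF in SKBR3, and 63.5 with vehicle and 58.0 with EGF in BT474. These values were singled out because the EGF list had the higher median in one line and the lower median in the other. The difference was not tested, as each condition had 1 list. The scale of the score is not stated and the lists differ in length, so no change of binding is read from them. The whole lists had medians of 35.0 and 129.25 in SKBR3 and 64.5 and 56.0 in BT474.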

How the results depend on the processing

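Of 112 alternatives for 26 results, 99 left the value within 1.5 times (counts) or within its interval (shares), and 13 moved it. The cause was not tested unless the alternative itself sets it. Bins higher in BT474 went from 8 to 5 of 26 in the test beyond 1.5-fold, to 20 of 49 with bins of 0.5 Mb and to 5 of 22 with a minimum of 100 kb of islands, which tests fewer bins. Bins higher in SKBR3 went from 16 to 1 in the test beyond 1.5-fold and to 8 of 16 with bins of 2 Mb. Dense bins of BT474 went from 4 to 10 at a threshold of 1.5 and to 1 at 2.5, and those of SKBR3 from 0 to 1 at 1.5. Of the BT474 EGF peaks, 15.7% lay in islands of both replicates. The core was at 4.60% of BT474 vehicle peaks within 25 bp, and at 14.9% of BT474 EGF peaks over the whole peak and 4.66% within 25 bp. With peaks scored under their list's median left out, 5.26% of SKBR3 vehicle peaks overlapped an SKBR3 EGF peak. Leaving out 1 library gave 8 to 9 bins higher in BT474, 14 to 15 in SKBR3, 75 to 81 genes higher in BT474, 65 to 82 in SKBR3, 5 to 6 dense bins in BT474 and 0 in SKBR3; the lone sample of a line was then taken to vary like the others. With a replicate block the counts were 8 and 16 bins and 95 and 92 genes. A dense bin had to reach the threshold in every replicate kept, so leaving out 1 library could only keep or raise the number of dense bins. The replicate numbers did not pair the samples (correlation of deviations -0.0046 over 1530 bins). Depth of the HER2 lists is unknown, and 1 list per condition allows no replicate check.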

Other observations

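Of 62 annotated microRNA genes on the segment, 12 lay in an island in both BT474 replicates and 11 in both SKBR3 replicates, 6 in both BT474 and neither SKBR3 replicate and 3 the other way round. These were 19.4%, 17.7%, 9.68% and 4.84%, against 12.1%, 11.3%, 3.94% and 3.24% of the 2967 microRNA genes elsewhere. MIR454 and MIR301A, neighbours in an intron of SKA2, lay in a BT474 island of 76.2 and 40.6 kb. In SKBR3, MIR301A lay in an island of 2.2 and 3.4 kb and MIR454 in none. MIR4316 lay in an SKBR3 island of 36.4 kb in both replicates, in SEPTIN9, and in none in BT474.

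HER2 peaks were found in 12, 26, 34 and 101 of the 516 coding genes in SKBR3 with vehicle, SKBR3 with EGF, BT474 with vehicle and BT474 with EGF. These were 2.33%, 5.04%, 6.59% and 19.6%, against 4.88%, 5.05%, 15.1% and 32.7% of coding genes elsewhere, with no matching of gene length. RBFOX3 held the most in SKBR3, with 6 vehicle and 3 EGF peaks, RPTOR the most in BT474 with vehicle (4), and the zinc transporter gene SLC39A11 the most in BT474 with EGF (11).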
